A study of Mus musculus with 8 samples.

Results

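The tectorial membrane is the acellular gel that lies over the hair cells of the cochlea, and 7 genes of this membrane and of related matrix were examined: Tecta, Tectb, Otog, Otogl, Otoa, Epyc and Emilin2. They were chosen by gene name as matrix genes of cochlear supporting cells, not by their values. All 7 were among the 25343 genes of the deposited table, and all 7 were among the 18203 genes tested. RNA came from hair cells sorted by an Atoh1-GFP reporter from pools of 12 to 20 cochlear sensory epithelia of mice aged 4 to 6 days after birth, whose background mixed C57BL/6 and 129. The Ndp KO group, lacking the secreted protein norrin, had 4 libraries, and the WT group had 4. Both groups carried the reporter and went through the same sort. The sources used here do not describe the knockout allele further. No label ties a pool to a litter or a culture, so the p-values reflect spread among libraries that may be technical in part or in full.

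Supporting cells beside the hair cells, and the cells of the transient ridge medial to them, secrete the tectorial membrane before hearing begins. The matrix holds collagen fibrils embedded in a striated sheet made of the tectorins, and it couples sound-driven motion of the organ of Corti to the hair bundles. Mutations of TECTA, OTOG, OTOGL and OTOA cause hereditary deafness in people. Norrin, the product of Ndp, signals through a frizzled receptor to the canonical Wnt pathway, whose nuclear partners are the TCF/LEF factors.

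Recovered reads numbered 35077950 to 48329827 per library. Ndp had 10.5, 22.6, 66.8 and 45.1 normalized counts in KO libraries 1 to 4, against 174, 90.4, 114 and 206 in WT libraries 1 to 4. Every KO library lay below every WT library for Ndp, although limma did not call it over all genes (log2 difference -2.20 ± 0.56 SE, adjusted p = 0.895). RNA of supporting cell genes was also present. The 15 markers of these cells summed to 112086 to 135771 normalized counts in KO libraries and 110049 to 160930 in WT libraries. Which cells this RNA came from was not measured. The 17 hair cell markers summed to 407993 to 482136 in KO libraries and 391186 to 434541 in WT libraries. In RNA of pooled cells, fewer cells of a type and less RNA per cell cannot be told apart.

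Promoters of 6 of the 7 genes were found in the RefSeq table of the build GRCm38.p6, and Otogl was not among them. Because norrin acts through the Wnt pathway, the 250 bases before each start site were searched for TCF/LEF letters (CTTTGAA and its form CTTTGAT, or CTTTGTA and its form CTTTGTT, on both strands) and for TATA box letters (TATAAA or TATATAA, on the sense strand). The promoters of both tectorin genes and of Otoa are shown, since the tectorins were the most abundant of the 7 and Otoa had the smallest p-value. Capitals mark the matches, and no match overlapped another. The windows are chr9:42399948-42400197 on the minus strand for Tecta, chr19:55180476-55180725 on the plus strand for Tectb and chr7:121083174-121083423 on the plus strand for Otoa, each written 5′ to 3′ along its gene.
Tecta: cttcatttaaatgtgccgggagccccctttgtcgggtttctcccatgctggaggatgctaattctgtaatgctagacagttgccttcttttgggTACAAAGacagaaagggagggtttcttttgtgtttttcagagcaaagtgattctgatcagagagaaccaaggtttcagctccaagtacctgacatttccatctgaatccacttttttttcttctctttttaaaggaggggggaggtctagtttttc
Tectb: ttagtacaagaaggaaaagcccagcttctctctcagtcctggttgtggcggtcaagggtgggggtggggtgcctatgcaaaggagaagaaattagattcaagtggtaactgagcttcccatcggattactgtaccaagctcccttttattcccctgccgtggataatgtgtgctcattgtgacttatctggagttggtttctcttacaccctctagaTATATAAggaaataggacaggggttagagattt
Otoa: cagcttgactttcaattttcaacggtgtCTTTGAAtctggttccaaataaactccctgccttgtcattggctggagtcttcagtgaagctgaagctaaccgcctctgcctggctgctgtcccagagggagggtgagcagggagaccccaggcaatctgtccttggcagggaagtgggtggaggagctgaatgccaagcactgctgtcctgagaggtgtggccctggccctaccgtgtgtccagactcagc
Tectb held a TATA match at -33 to -27, counted from the start site, and no TCF/LEF match. Tecta held a TCF/LEF match on the opposite strand at -156 to -150, which reads TACAAAG along the gene, and Otoa held one at -222 to -216. Otog had such a match at -178 to -172 and Epyc at -196 to -190, while Emilin2 held neither motif. So 4 of 6 promoters held TCF/LEF letters and 1 of 6 held TATA letters. Among 32851 promoter windows of the same length, 14.8% held TCF/LEF letters and 8.70% held TATA letters. These shares are not given by base composition, and G and C made up 39.2% to 57.2% of the 6 promoters. For Tecta, Epyc and Emilin2 the RefSeq table held 2 start sites, of which 1 was searched. For Otoa and Emilin2 the RefSeq start site lies inside the gene coordinates given below, and so does the window searched. The RefSeq start site is 121083424 for Otoa, whose gene begins at 121081650, and 71311556 for Emilin2, whose gene begins at 71311978. Which start sites these cells used was not measured. The matches describe letters in 1 window per gene and do not show binding.

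Levels were compared between genes per kilobase of the longest protein-coding transcript in GENCODE vM21, since longer transcripts give more reads in full-length cDNA. Both tectorin genes stood far above the other 5. Tectb, which encodes beta-tectorin of the striated sheet, had 65930 ± 10242 normalized counts per kilobase in KO libraries and 78568 ± 26920 in WT libraries (SD, n = 4 each). It ranked 16 of 18195 genes with a length, above each of the 17 hair cell markers, the highest of which was the calcium buffer gene Calb1 at rank 34. Tecta, which encodes the large alpha-tectorin, had 11868 ± 3102 per kilobase in KO libraries and 11046 ± 2000 in WT libraries (SD, n = 4 each), at rank 194. Of the hair cell markers, 2 stood above Tecta.

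Tectb exceeded Tecta per kilobase in 8 of 8 libraries, by 4.07 to 9.16 times, and Tecta exceeded Otoa in 8 of 8, by 3.88 to 6.90 times. Otoa, Epyc, Otog and Emilin2 followed, with means over the 8 libraries of 2384, 1787, 1168 and 1112 normalized counts per kilobase. Neighbours among these 4 overlapped in range and traded places between libraries: Otoa exceeded Epyc in 7 of 8, Epyc exceeded Otog in 6 of 8, and Otog exceeded Emilin2 in 5 of 8. Otogl was lowest at 429 per kilobase and lay below Emilin2 in 8 of 8 libraries. Together the 7 genes took 0.589% to 0.903% of reads in KO libraries and 0.528% to 0.982% in WT libraries. Lengths are those of 1 annotated transcript per gene, and which isoforms were present was not measured.

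**Figure D1:**
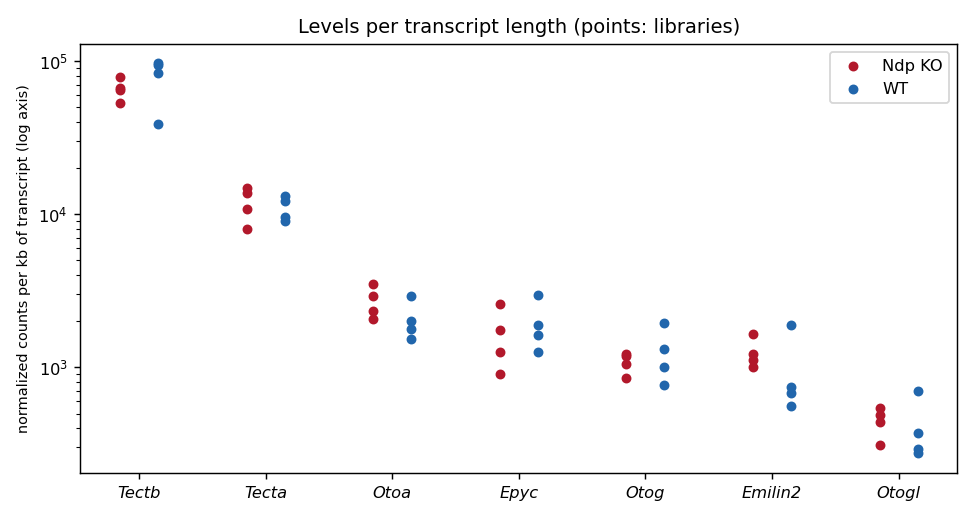
Normalized counts per kilobase of transcript (log axis) of the 7 matrix genes, ordered by their mean over the 8 libraries, with 1 point per library, Ndp KO left of WT. Tectb (rank 16 of 18195 genes) and Tecta (rank 194) stand apart, and the points of Otoa, Epyc, Otog and Emilin2 overlap.

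The comparison of KO with WT asked whether loss of Ndp goes with a change in these matrix genes. Limma called 0 of the 7, with 0 at an unadjusted p under 0.05, and the same held in edgeR and DESeq2, with 0 called and 0 at an unadjusted p under 0.05 in each. Over all genes tested, limma called 0.00549% (CR974586.1 alone, which fell), and 5.57% had an unadjusted p under 0.05. The shares called were 0% in edgeR and 0.136% in DESeq2, and those with an unadjusted p under 0.05 were 4.55% and 6.09%. The log2 differences, KO minus WT, were positive for 4 of the 7 and negative for 3, with a median of 0.081 beside 0.016 over all genes tested. The signs of Tecta and Otog turned when single libraries were left out. KO and WT libraries overlapped for each of the 7, while 3.04% of all genes tested did not overlap. In the authors' deposited table the smallest unadjusted p of the 7 was 0.116, for Otoa, and every adjusted p was 0.999999.

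The tectorins are ZP-domain glycoproteins that polymerize into the striated sheet. Tecta (ENSMUSG00000037705) lies at chr9:42329619-42399929 on the minus strand, in the mm10 coordinates of GENCODE vM21 used for all 7 genes. Tecta had 58555, 109469, 100647 and 79667 normalized counts in KO libraries 1 to 4, against 66790, 97047, 70567 and 89815 in WT libraries 1 to 4. The highest and the lowest Tecta values were both in KO libraries, 2 and 1, and the groups overlapped. The log2 difference of Tecta was 0.081 ± 0.21 (SE), with a 95% confidence interval of -0.38 to 0.54 and an adjusted p of 0.992 in limma. It was -0.043 without KO replicate 2, -0.0023 without KO replicate 3 and -0.0063 without WT replicate 1.

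Tectb (ENSMUSG00000024979; chr19:55180733-55196313, plus strand) had 145735, 213675, 175802 and 183430 normalized counts in KO libraries 1 to 4, against 227098, 259071, 106783 and 263445 in WT libraries 1 to 4. WT library 3 was the lowest of the 8, and the other 3 WT libraries lay above all KO libraries. The log2 difference of Tectb was -0.18 ± 0.27 (SE), with an interval of -0.78 to 0.42 and an adjusted p of 0.981 in limma. Without WT replicate 3 it was -0.49, with an unadjusted p of 0.00974, where 6.84% of all genes had one under 0.05, and no gene was called.

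Since both tectorins build 1 matrix, their ratio within each library was compared, which does not depend on how libraries are scaled. Tecta over Tectb, in normalized counts, was 0.402, 0.512, 0.573 and 0.434 in KO libraries 1 to 4, against 0.294, 0.375, 0.661 and 0.341 in WT libraries 1 to 4. WT library 3 held the highest ratio and the other 3 WT libraries lay below all KO libraries. The mean log2 ratio was -1.07 ± 0.23 in KO libraries and -1.33 ± 0.51 in WT libraries (SD, n = 4 each). Their difference of 0.26 had p = 0.371 in an exact two-sided permutation test, adjusted p = 0.514 over the 2 ratios tested. The smallest p this test can give is 0.0286.

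Otogelin and otogelin-like, encoded by Otog and Otogl, are large mucin-like glycoproteins of the acellular membranes of the inner ear. Otog (ENSMUSG00000009487; chr7:46240987-46311434, plus strand) had 8625, 11842, 12237 and 10613 normalized counts in KO libraries 1 to 4, against 13199, 10180, 7693 and 19487 in WT libraries 1 to 4. The KO values lay within the WT range, with the extremes in WT libraries 3 and 4. The log2 difference of Otog was -0.15 ± 0.25 (SE), interval -0.71 to 0.41, adjusted p = 0.987 in limma. Without WT replicate 4 it was 0.086.

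Otogl (ENSMUSG00000091455; chr10:107760531-107912134, minus strand) had 4253, 2748, 4774 and 3858 normalized counts in KO libraries 1 to 4, against 2404, 6158, 2580 and 3288 in WT libraries 1 to 4. WT library 2 was the highest of the 8, and the other 3 WT libraries lay below KO libraries 1, 3 and 4. The log2 difference of Otogl was 0.19 ± 0.29 (SE), interval -0.44 to 0.83, adjusted p = 0.981 in limma. Without WT replicate 2 it was 0.49 (unadjusted p = 0.0394, adjusted p = 0.527 in limma), where 9.37% of all genes had an unadjusted p under 0.05. The ratio of Otog over Otogl ranged from 2.03 to 4.31 in KO libraries and from 1.65 to 5.93 in WT libraries. Its mean log2 value differed by -0.34 between KO and WT libraries (exact permutation p = 0.514, two-sided, adjusted p = 0.514).

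Otoa encodes otoancorin, which anchors the tectorial membrane to the interdental cells of the spiral limbus. Otoa (ENSMUSG00000034990; chr7:121081650-121163097, plus strand) had 7765, 10999, 13306 and 8767 normalized counts in KO libraries 1 to 4, against 7590, 11075, 5747 and 6697 in WT libraries 1 to 4. All KO libraries lay above 3 of the WT libraries, while WT library 2 lay above 3 KO libraries. Its log2 difference of 0.41 ± 0.22 (SE), interval -0.09 to 0.90, had the smallest p of the 7 (unadjusted p = 0.0987, adjusted p = 0.917 in limma). Without WT replicate 2 the difference of Otoa was 0.59 (unadjusted p = 0.0132, adjusted p = 0.474 in limma), where 9.37% of all genes had an unadjusted p under 0.05. Without KO replicate 1 its unadjusted p was 0.0503, where 4.05% of all genes had one under 0.05.

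Epyc encodes epiphycan, a small leucine-rich proteoglycan. Epyc (ENSMUSG00000019936; chr10:97644068-97682454, plus strand) had 3225, 6603, 2309 and 4469 normalized counts in KO libraries 1 to 4, against 7599, 4778, 3199 and 4113 in WT libraries 1 to 4. KO libraries 2 and 3 were 2.86 times apart, and the groups overlapped throughout. The log2 difference of Epyc was -0.28 ± 0.33 (SE), interval -1.01 to 0.45, adjusted p = 0.973 in limma.

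Emilin2 encodes a glycoprotein of the EMILIN family, described in the basilar membrane below the organ of Corti. Emilin2 (ENSMUSG00000024053; chr17:71252172-71311978, minus strand) had 4849, 4390.1, 6514 and 3963 normalized counts in KO libraries 1 to 4, against 2923, 7479, 2210 and 2700 in WT libraries 1 to 4. All KO libraries lay above WT libraries 1, 3 and 4, and WT library 2 was the highest of the 8. Its log2 difference of 0.52 ± 0.33 (SE), interval -0.22 to 1.256, was the largest of the 7 (unadjusted p = 0.149, adjusted p = 0.927 in limma). Without WT replicate 2 it was 0.90, with an unadjusted p of 0.000867 where 9.37% of all genes had one under 0.05, and no gene was called.

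**Figure D2:**
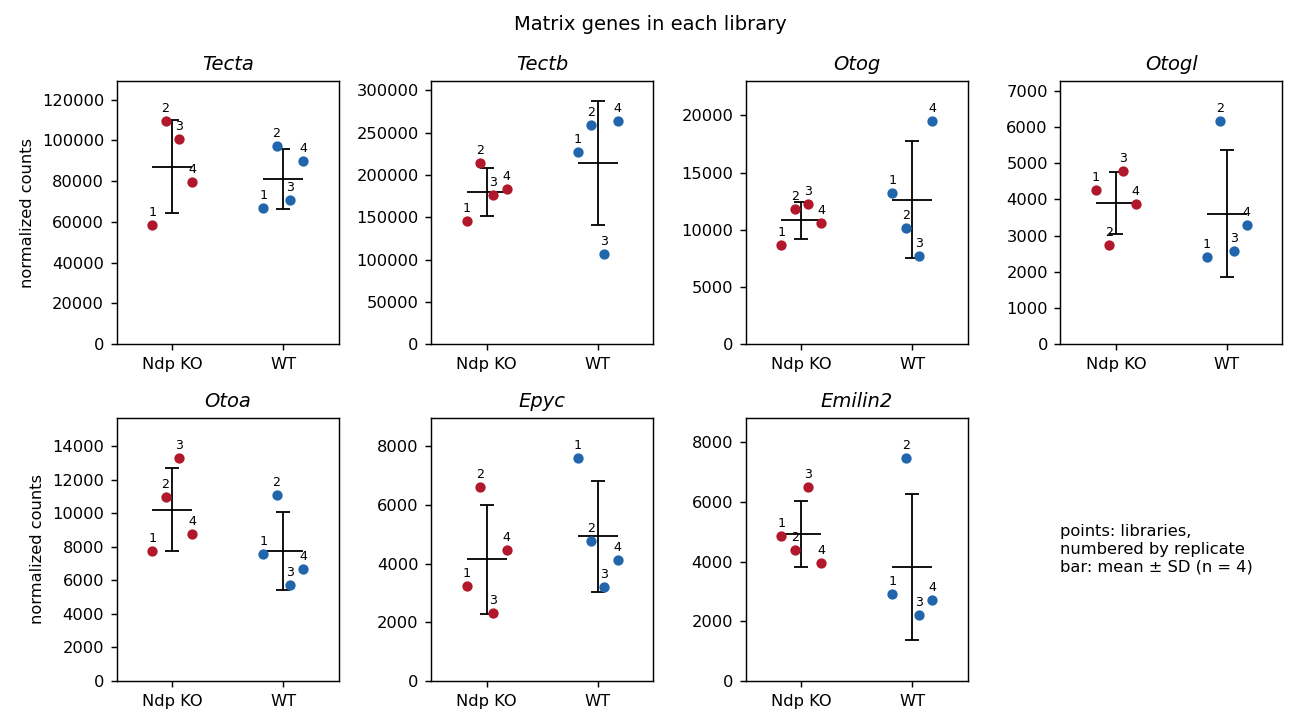
Normalized counts of the 7 matrix genes in each library, Ndp KO (red) left of WT (blue), with points numbered by replicate and bars for the mean ± SD (n = 4 each). Every gene overlaps between the groups, and WT library 2 is the highest of 8 for Otogl and Emilin2.

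The intervals bound what these libraries allow. For Tecta they ran from a 0.768-fold to a 1.46-fold level in KO over WT libraries, and for Emilin2 from 0.859-fold to 2.39-fold. The coefficient of variation was larger in WT than in KO libraries for 5 of the 7 genes. The share over all genes is not given here, so this count is not read as a trait of the 7. For Emilin2 it was 22.7% in KO libraries and 64.1% in WT libraries, for Otog 15.0% in KO and 40.3% in WT libraries, and for Tectb 15.5% in KO and 34.3% in WT libraries. Tecta and Epyc varied more in KO libraries, with 26.1% and 44.8%, against 18.1% and 38.6% in WT libraries.

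Other genes of the same matrix, or tied to it by function, were set beside the 7, in a list of 9 partners. Of 8 tested, limma called 0, with 0 higher and 1 lower at an unadjusted p under 0.05, and edgeR and DESeq2 called 0. Over all genes tested 3.1% were higher and 2.47% lower at that unadjusted p. Hpn was the lower one: it encodes hepsin, a membrane serine protease whose loss alters the tectorial membrane in mice. Hpn had 1085, 1825, 1057 and 1758 normalized counts in KO libraries 1 to 4, against 2368, 1995, 2007 and 1721 in WT libraries 1 to 4. KO libraries 1 and 3 lay below all others, and the groups overlapped. The log2 difference of Hpn was -0.54 ± 0.21 (SE), adjusted p = 0.895 in limma.

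The collagens of the matrix were abundant and did not pass. Col2a1, the fibril-forming type II chain, had 66142 ± 8655 normalized counts in KO libraries and 62089 ± 25383 in WT libraries (SD, n = 4 each). Col11a2, a type XI chain needed for ordered tectorial collagen, had 9106 ± 853 in KO libraries and 7414 ± 4264 in WT libraries (SD, n = 4 each), and differed by 0.44 ± 0.30 (log2, SE). The log2 differences of Col11a1, Col9a1, Col9a2 and Col9a3 were -0.18, 0.18, -0.18 and -0.029. Strc encodes stereocilin, which hair cells use to attach their bundles to the membrane, and its log2 difference was 0.41 ± 0.22 (SE). Ceacam16, a partner of alpha-tectorin, was below the minimum level for a test. It had 7.38, 7.85, 81.2 and 9.90 normalized counts in KO libraries 1 to 4, against 0, 10.04, 0.780 and 18.6 in WT libraries 1 to 4. Over the 8 partners tested the median log2 difference was 0.070, with 4 positive and 4 negative.

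**Figure D3:**
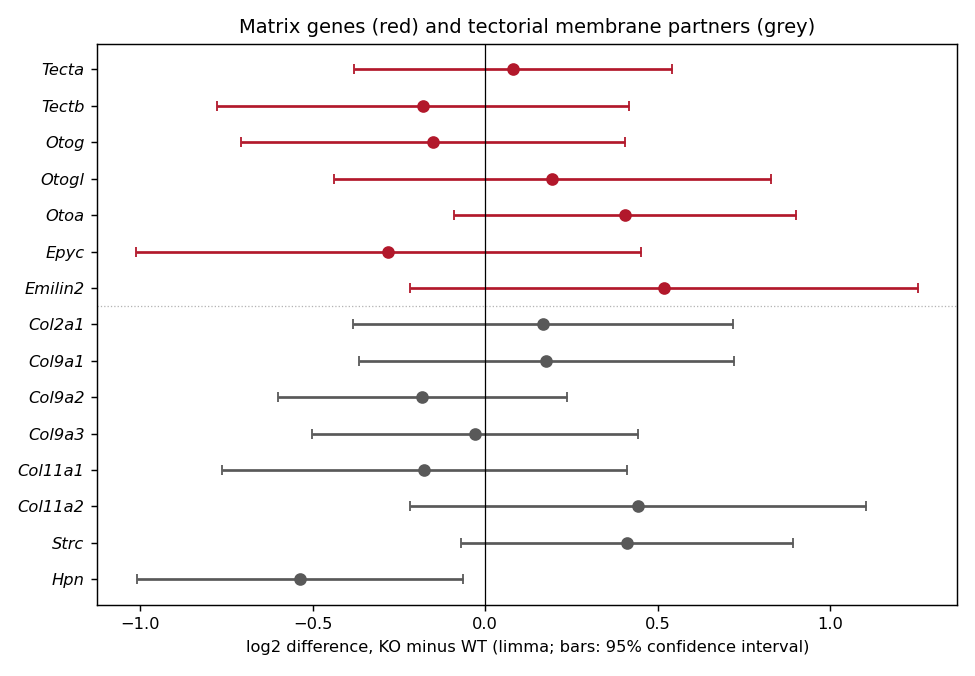
Log2 difference, KO minus WT, of the 7 matrix genes (red) and the 8 partners tested (grey), with 95% confidence intervals from limma. The interval of each matrix gene includes 0, that of Hpn alone among the partners does not, and no gene passed over all genes tested.

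Relatives of the 7 in other matrices were sparse except for a few. The 3 genes of otoconial and cupular matrix had 0 called, with 1 higher at an unadjusted p under 0.05, Otol1, the gene of otolin, a collagen-like otoconial scaffold. Otol1 had 4422 ± 931 normalized counts in KO libraries and 3274 ± 438 in WT libraries (SD, n = 4 each), and differed by 0.42 ± 0.18 (log2, SE; limma adjusted p = 0.895). Of 8 other small leucine-rich proteoglycans tested, 0 were called, with 1 higher (Prelp) and 1 lower (Optc) at an unadjusted p under 0.05. Both were low, with Optc at 10.6 ± 5.199 in KO libraries and 29.5 ± 9.41 in WT libraries (SD, n = 4 each). Of 3 other EMILIN and multimerin genes tested, 0 were called and 0 had an unadjusted p under 0.05. Emilin1 had 351 ± 216 in KO libraries and 213 ± 61.2 in WT libraries (SD, n = 4 each), far below Emilin2 in normalized counts. For these lists edgeR and DESeq2 called 0. At an unadjusted p under 0.05 in limma, 3.1% of all genes tested were higher and 2.47% lower.

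Only 1 date in the library titles occurred in both genotypes, and it joined KO library 2 with WT library 2. Differences within this pair and within the other 6 libraries were therefore compared, with 3 libraries in each group. Emilin2 differed by -0.77 (log2) in the pair and by 0.95 ± 0.21 (SE) in the other 6 libraries, with an unadjusted p of 0.00182 in limma. Otogl differed by -1.16 in the pair and by 0.65 ± 0.18 (SE) in the other 6 (unadjusted p = 0.00562 in limma). Otoa differed by -0.010 in the pair and by 0.54 ± 0.22 (SE) in the other 6 (unadjusted p = 0.0363 in limma). In those 6 libraries all KO values of these 3 genes lay above all WT values. Across all genes tested in the 6 libraries, 14.8% did not overlap, 7.71% in the higher direction, and 9.09% had an unadjusted p under 0.05, 5.67% in the higher direction. The adjusted p in the 6 libraries was 0.415 for Emilin2, 0.474 for Otogl and 0.522 for Otoa, and no gene was called.

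The other members did not share that pattern. Tectb differed by -0.28 in the pair and -0.15 in the other 6 libraries, and Tecta by 0.17 and 0.050. Epyc differed by 0.47 in the pair and -0.53 in the other 6, and Otog by 0.22 and -0.27. The sign in the pair and in the other 6 libraries was opposite for 5 of the 7 genes, among them Otoa at only -0.010 in the pair. The share over all genes is not given here. Neither this count nor that of the partners below is therefore read as a trait of these genes. Among the partners the signs were opposite for 5 of 8, all negative in the pair and positive in the other 6 libraries. Col11a2 had -0.44 and 0.74, Col2a1 -0.47 and 0.38, Col9a1 -0.51 and 0.41, Col9a3 -0.47 and 0.12, and Col11a1 -0.96 and 0.085. Of the 8 partners, 1 did not overlap in the 6 libraries, Col11a2 (unadjusted p = 0.00323, adjusted p = 0.426 in limma). Hpn differed by -0.67 there (unadjusted p = 0.0223 in limma) and overlapped. Over all genes tested in the 6 libraries, 14.8% did not overlap and 9.09% had an unadjusted p under 0.05. WT library 2 was also the highest WT library in supporting cell markers, summing to 160930 normalized counts against 110049 to 132937 in the other 3 WT libraries. The partners summed to 208913 in that library, against 103722 to 135170 in the other 3. The part of this difference between WT libraries in the results above was not tested.

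**Figure D4:**
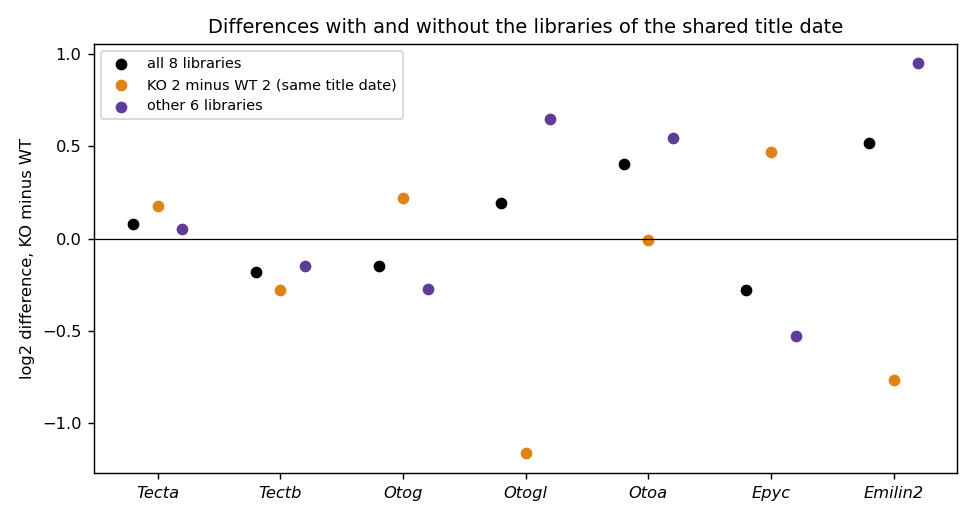
Log2 difference, KO minus WT, of each matrix gene in all 8 libraries (black), in the pair with a shared title date (orange) and in the other 6 libraries (purple). Otogl and Emilin2 change sign between the pair (-1.16 and -0.77) and the other 6 libraries (0.65 and 0.95), while both values of Tectb are negative.

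How the 7 genes varied from library to library was described by the root mean square (RMS) difference of their log2 values over the 8 libraries, after each gene was centred on its own mean. A small RMS difference means similar profiles, and libraries share depth and cell makeup. The closest pair was Tectb and Otog at 0.27, followed by Tecta and Otoa at 0.28, Otoa and Emilin2 at 0.30, and Otogl and Emilin2 at 0.30. Both tectorins were 0.37 apart and both otogelins 0.62. Epyc and Emilin2 were the farthest pair, at 0.86. WT library 3 was below the mean of the 8 libraries for all 7 genes, and KO library 1 for 5 of them. WT library 2 and KO library 2 were each above the mean for 6 of 7 genes, the exceptions being Otog in WT library 2 and Otogl in KO library 2.

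**Figure D5:**
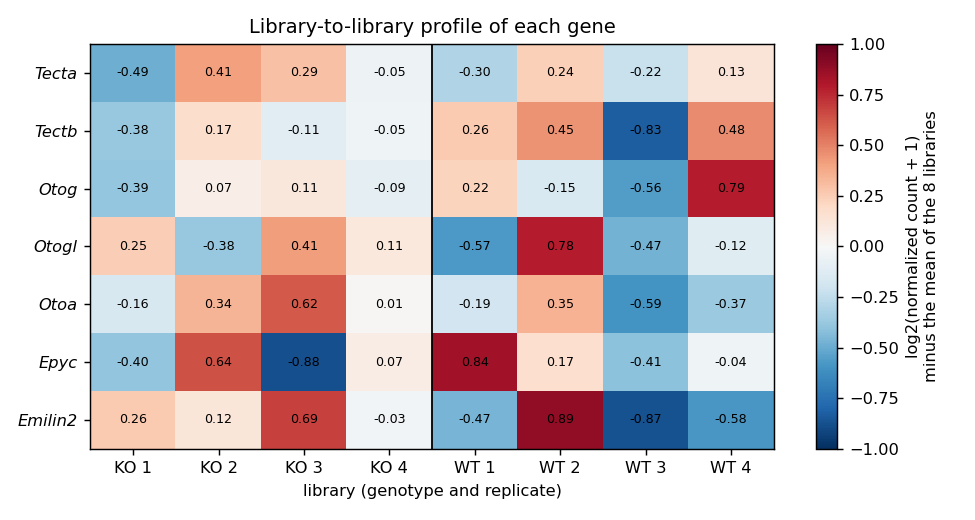
Log2(normalized count + 1) of each matrix gene in each library minus its mean over the 8 libraries, KO libraries left of WT libraries. WT library 3 is below the mean for all 7 genes, and Emilin2 and Otogl are highest in WT library 2.

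The genes most like each member over the 8 libraries were taken from 12907 genes with a mean of at least 100 normalized counts. The nearest of so many genes lie below the median gene by selection, so that gap is not read as a result. Nearest to Tecta were the annexin gene Anxa7 (RMS difference 0.094), Ackr4 (0.13) and Pitpnc1 (0.14), where the median gene was 0.42 away. The median gene was 0.51 from Tectb, 0.49 from Otog, 0.52 from Otogl, 0.47 from Otoa, 0.61 from Epyc and 0.63 from Emilin2. Nearest to Tectb were the GTPase gene Irgm1 (0.11), Tmem171 (0.12) and Slc16a13 (0.16). Nearest to Otog were Gm10638 (0.068), 1700021F05Rik (0.086) and the SNARE gene Vamp8 (0.094). Otogl and Epyc had no neighbour as close: Msantd2, Dip2a and the phosphate transporter gene Slc20a1 were each 0.17 from Otogl, and Adgrg2 (0.20) and Cracr2b (0.24) were the nearest to Epyc given here. Nearest to Otoa were the ephrin gene Efna3 (0.11), Prdm12 (0.12) and Lox (0.13), which encodes the lysyl oxidase that crosslinks collagen. Nearest to Emilin2 were the netrin gene Ntn4 (0.13), Tbc1d8 (0.14) and Lgr6 (0.18), a receptor for R-spondins. None of these 20 genes passed in limma, and Lgr6 alone had an unadjusted p under 0.05 (0.0428). Over all genes tested, limma called 0.00549% and 5.57% had an unadjusted p under 0.05. The 20 genes were picked for profiles like those of the members, so their differences follow the members' by choice and are not a separate result.

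Markers of the cells that make this matrix, and of cells the sort could carry over, were set beside these values. Limma called 0 genes in each of the lists that follow. Outside the red blood cell genes, for which this was not tabulated, edgeR called 0 and DESeq2 called 1, Coch. At an unadjusted p under 0.05 in limma, 3.1% of all genes tested were higher and 2.47% lower. The median log2 difference of all genes tested was 0.016. Of 15 supporting cell markers, 3 were lower and 0 higher at an unadjusted p under 0.05, with a median log2 difference of -0.13. The Notch effector genes Hes5 and Hey1 and the transcription factor gene Sox2 were those 3, at -0.98 ± 0.23, -0.60 ± 0.18 and -0.40 ± 0.18 (SE). Of 6 genes of the greater epithelial ridge, P2ry1, a purinergic receptor gene, was higher (0.56 ± 0.22, SE) and Crabp1 was lower at an unadjusted p under 0.05. Crabp1 fell by more, at -3.00 ± 1.31 (SE), but was low and at 0 in KO library 3. Ano1, the chloride channel gene of that ridge, had a log2 difference of 0.58 ± 0.29 (SE). Whatever their p, 2 of the 6 ridge genes rose in KO libraries and 4 fell, with a list median of -0.17. That median was 0.018 without WT replicate 2. Of 6 pillar and Deiters cell genes, 0 had an unadjusted p under 0.05, with a median of -0.27. Most of these 6, Prox1, Hey2 and Fgfr3 among them, were also among the 15 supporting cell markers, so the lists are not independent.

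Of 17 hair cell markers, 3 were higher at an unadjusted p under 0.05, namely Tmc1, Slc26a5 and Ocm, with a list median of 0.075. Beside this count and those below, 3.1% of all genes tested were higher and 2.47% lower, with a median of 0.016. Of 12 macrophage markers 5 were higher, with a median of 1.79, which was 2.55 without WT replicate 1, 1.09 without WT replicate 2 and 1.06 in edgeR and in DESeq2. They summed to 3819 to 6137 normalized counts in KO libraries and 2098 to 5138 in WT libraries. Of 9 mesenchyme and fibrocyte markers 3 were higher (Coch, Col1a2 and Tbx18), with a median of 0.66 and a sum of 11183 to 27055 in KO libraries and 7650 to 14471 in WT libraries. Of 6 endothelial markers tested 1 was higher, Tek, with a median of 1.43. The 7 endothelial markers analysed, including 1 below the minimum for a test, summed to at most 327 in KO libraries and 197 in WT libraries. Kdr and Cldn5 were not analysed here, and Tek, Flt1 and Esam were at 0 in some library. Of 6 neuronal markers 1 was higher (Snap25) and 1 lower (Nefm), and of 4 glial and 2 stria vascularis markers tested 0 had an unadjusted p under 0.05. Red blood cell genes summed to at most 63.2 in KO libraries and 49.3 in WT libraries. The part of these cell types in the values of the matrix genes was not tested.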

How the data were processed

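RNA of sorted cochlear hair cells was measured in 8 libraries, 4 Ndp KO and 4 WT, made with SMART-Seq v4 and Nextera XT, per the labels' protocols. The kit keeps no strand, and Tecta, Epyc and Emilin2 cannot be told from an overlapping gene on the other strand, which had at most 26.4 normalized counts in any library. Salmon 0.14.2, DESeq2 1.26.0, bcl2fastq 2.20 and the build mm10 are listed, per the submitters' processing notes, without their roles.

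The signal columns that the authors deposited hold normalized gene counts, scaled by 1 factor in each library. The deposited table also holds the authors' p-values and log2 fold changes. Whole reads were recovered from 100% of 202744 values (tolerance 1e-06), and the sources used here do not say whether they are counted reads or rounded estimates. A floor of 3 reads was worth 2.34 to 3.49 normalized counts, and the lowest read number of any of the 7 genes was 2277. PCR copies cannot be told from separate molecules, so this floor reflects counting error alone.

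Groups came from the genotype labels. The test used limma 3.58.1 (R 4.3.3, trend on mean level) on log2(normalized count + 1), two-sided, Benjamini-Hochberg adjusted at 0.05 over the 18203 genes with at least 10 normalized counts in at least 4 libraries. Adding 1 understates changes of low genes. edgeR 4.0.16 (quasi-likelihood, TMM) and DESeq2 1.42.0 on recovered reads were alternatives, beside other pseudocounts, filters, scaling, weights and left-out libraries. The limma, edgeR and DESeq2 fits were also run on simulated counts, and the outcome is not given here. Those counts were drawn independently for each gene and library. They therefore cannot show how the fits handle shifts that many genes of a library share. Named genes were the 7, Ndp, the partners, up to 3 genes of each other list by smallest p, and the 3 nearest to each of the 7 by RMS difference. For Epyc 1 of these 3 is not reported here. Other list genes are named after their values were seen, as are CR974586.1 and Calb1. The 7 genes, the lists and the tests were chosen with earlier results of these data known. Promoter sequences are from RefSeq, GRCm38.p6. Transcript lengths are from GENCODE vM21, which holds 25332 of the 25343 gene identifiers.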

Additional observations from a re-analysis of the deposited data

Results flagged for a closer look

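Of 116 groups of 4 libraries examined, 10 held 1 library far from the other 3. For independent, normally distributed values chance alone gives about 1 such group in 20. These groups share libraries and were not shown to be normally distributed, so the number flagged is not read against that share. The matrix gene flagged was Emilin2, with 7479 normalized counts in WT library 2, against 2210 to 2923 in the other WT libraries. In the same library Ano1 had 55762 (23839 to 29101 in the other 3 WT libraries) and the potassium channel gene Kcnj10 had 7973 (2502 to 2826). Ceacam16 had 81.2 normalized counts in KO library 3, against 7.38 to 9.90 in the other KO libraries, and P2ry1 had 1679.9 in that library, against 1022 to 1127. KO library 4 held 267 of Bgn, against 78.0 to 96.1 in the other KO libraries, and 352 of C1qa, against 133 to 169.6. WT library 1 held 165 of C1qa, 145 of Adgre1 and 1061 of Lyz2, against 21.0 to 35.9, 0 to 14.0 and 4.68 to 121 in the other WT libraries.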

How the results depend on the processing

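Under 19 alternatives the number of matrix genes called stayed at 0. Tectb and Epyc stayed negative and Otogl, Otoa and Emilin2 stayed positive under all 19, while their sizes depended on single libraries. With 1 library left out, Tecta ranged from -0.043 to 0.26 (negative without KO replicate 2 or 3 or WT replicate 1), Otog from -0.36 to 0.086 (positive without WT replicate 4), Tectb from -0.49 to -0.052, Otogl from 0.035 to 0.49, Otoa from 0.27 to 0.59, Epyc from -0.54 to -0.034 and Emilin2 from 0.31 to 0.90. The lowest adjusted p of any of these was 0.395 (Emilin2). The log2 ratio difference ranged from 0.12 to 0.51 for Tecta over Tectb and from -0.71 to -0.100 for Otog over Otogl, which was -0.92 without both libraries of the shared title date. Over all genes the 1 call became 0 with a pseudocount of 0.1, a minimum of 100 normalized counts, edgeR, or without those 2 libraries, 3 without the trend and 34 with DESeq2, and was 0 to 2 with 1 library left out. No paired design is given by the labels, whose replicate numbers follow accession order, and with the replicate block 0 genes were called. List medians moved by more than the spread between libraries in 5 of 265 cases. Under each alternative the median of all genes tested lay between -0.020 and 0.024. The lowest read number of the 7 genes was 2277, so counting error was small beside the spread between libraries. Ratios were not recomputed under count models.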
